A study of Mus musculus with 8 samples.

Results

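The 965 p300 peaks listed for iMOP-derived neurons were set against the 5625 H3K4me3 peaks of the same cells. A p300 peak counted as being at H3K4me3 when the intervals shared at least 1 bp, and as away from it otherwise. By that rule 139 p300 peaks were at H3K4me3 and 826 were away, out of 26724 peaks in the 6 lists of the series. The cells were wild-type mouse iMOPs, a single immortalized line of multipotent otic progenitors, either proliferating in medium with 20 ng/ml bFGF, B27 and carbenicillin at 25 µg/ml, or turned into neurons in Neurobasal medium with N21, L-glutamine at 2 mM and, at 1 µM, K03861, a cyclin-dependent kinase inhibitor. CUT&Tag, in which an antibody brings a transposase to the protein or mark it binds so that nearby DNA is cut and tagged, was run on 500000 cells per library for CHD4, H3K4me3, p300 and IgG, with 1 library per antibody and state. The IgG controls were not analysed here, and the values therefore have no measured background. Depth is unknown, since the lists hold no read counts, and no comparison has a replicate check. Shares carry exact (Clopper-Pearson) 95% intervals that cover counting error only.

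p300 is a lysine acetyltransferase that acetylates histones and serves as a coactivator for many transcription factors at promoters and enhancers. H3K4me3, histone H3 trimethylated at lysine 4, marks the starts of active or poised genes, above all those in CpG-rich DNA. Distal enhancers typically carry p300 with the monomethylated rather than the trimethylated form of that lysine, so the position of p300 relative to H3K4me3 is often used to separate promoter-proximal from distal sites.

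The sequences that follow show what the promoters under p300 look like with and without H3K4me3. They were taken from RefSeq promoter windows (assembly GRCm38.p6, 250 bases before and 50 from the start on), which covered 17492 of 21887 protein-coding genes. Capitals mark matches, on either strand, to 7 motifs: TGACGTCA (the cyclic AMP response element, CRE), TGANTCA (the element of AP-1), CAGCTG (an E-box bound by proneural bHLH factors), CACGTG (the E-box bound by MYC and its relatives), GGGCGG (the GC box of SP factors), CCAAT (the box bound by NF-Y) and TGGGAA (the core bound by RBPJ, the DNA-binding partner of Notch). Each of the first 3 windows held the region of highest p300 signal of a peak at H3K4me3.
Hes6 promoter, chr1:91413989-91414288, minus strand: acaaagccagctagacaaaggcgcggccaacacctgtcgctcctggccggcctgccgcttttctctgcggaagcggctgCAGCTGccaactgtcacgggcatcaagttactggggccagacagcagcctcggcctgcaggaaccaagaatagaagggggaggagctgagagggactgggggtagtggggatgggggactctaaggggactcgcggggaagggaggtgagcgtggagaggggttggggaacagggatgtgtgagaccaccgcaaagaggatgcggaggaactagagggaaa
Jun promoter, chr4:95052173-95052472, minus strand: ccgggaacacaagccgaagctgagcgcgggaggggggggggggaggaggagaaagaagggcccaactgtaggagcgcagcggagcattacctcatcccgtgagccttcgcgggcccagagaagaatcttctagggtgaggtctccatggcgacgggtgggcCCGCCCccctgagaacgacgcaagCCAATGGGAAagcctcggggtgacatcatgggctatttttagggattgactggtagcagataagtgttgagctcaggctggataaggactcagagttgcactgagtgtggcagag
Ddit4 promoter, chr10:59951721-59952020, minus strand: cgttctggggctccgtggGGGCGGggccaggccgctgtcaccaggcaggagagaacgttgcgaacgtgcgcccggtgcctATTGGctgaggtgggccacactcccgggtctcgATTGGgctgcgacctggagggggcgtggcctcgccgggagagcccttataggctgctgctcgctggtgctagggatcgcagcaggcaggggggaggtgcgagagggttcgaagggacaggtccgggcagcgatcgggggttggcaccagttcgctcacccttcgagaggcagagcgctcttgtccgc
The next 3 windows held the region of highest p300 signal of a peak with no H3K4me3 over it.
Lrp8 promoter, chr4:107830703-107831002, plus strand: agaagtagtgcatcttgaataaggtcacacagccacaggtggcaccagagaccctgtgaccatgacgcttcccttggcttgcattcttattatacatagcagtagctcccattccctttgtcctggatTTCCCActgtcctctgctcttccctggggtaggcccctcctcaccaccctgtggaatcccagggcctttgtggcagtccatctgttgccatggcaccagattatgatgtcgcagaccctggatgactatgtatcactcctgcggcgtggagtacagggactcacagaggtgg
Otoa promoter, chr7:121083174-121083473, plus strand: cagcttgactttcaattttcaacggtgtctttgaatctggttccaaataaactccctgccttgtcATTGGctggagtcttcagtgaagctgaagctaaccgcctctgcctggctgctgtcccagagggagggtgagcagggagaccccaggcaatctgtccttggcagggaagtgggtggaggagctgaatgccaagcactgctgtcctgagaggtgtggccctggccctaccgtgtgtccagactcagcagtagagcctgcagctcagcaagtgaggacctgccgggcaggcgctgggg
Rgs8 promoter, chr1:153665423-153665722, plus strand: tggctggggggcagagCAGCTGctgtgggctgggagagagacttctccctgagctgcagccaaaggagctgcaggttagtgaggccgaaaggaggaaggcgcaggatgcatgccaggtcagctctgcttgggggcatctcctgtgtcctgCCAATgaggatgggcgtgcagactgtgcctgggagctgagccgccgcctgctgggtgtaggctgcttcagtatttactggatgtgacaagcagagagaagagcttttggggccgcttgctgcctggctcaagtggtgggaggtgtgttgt

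Hes6 encodes a bHLH protein of the Hes family, Jun an AP-1 subunit, and Ddit4 an inhibitor of mTORC1. Lrp8 encodes a reelin receptor, Otoa the inner ear protein otoancorin, and Rgs8 a regulator of G-protein signalling. The Lrp8 and Rgs8 windows belong to starts inside the span of the gene. The windows without H3K4me3 held 4, 5 and 6 CpG dinucleotides, and those with it 14, 15 and 26. The medians over all such windows lay in the same direction. Windows in both a p300 and an H3K4me3 peak (142 windows of 111 genes) had a median of 23 CpGs and 65.8% GC, those in p300 without H3K4me3 (48 windows of 37 genes) had 6 CpGs and 57.5% GC, and those in H3K4me3 without p300 (6149 windows) had 25 CpGs and 64.0% GC. Over all 21263 windows the medians were 13 CpGs and 56.3% GC. A GC box stood in 72.5% (64.4 to 79.7) of windows with both, in 39.6% (25.8 to 54.7) of those with p300 alone, in 71.2% with H3K4me3 alone and in 46.2% of all. The TGGGAA core stood in 14.8% (9.39 to 21.7) with both, 35.4% (22.2 to 50.5) with p300 alone, 20.7% with H3K4me3 alone and 24.5% of all. CAGCTG was in 17.6%, 22.9%, 12.9% and 15.6% in that order, and CACGTG in 4.93%, 0%, 10.6% and 7.84%. With 0 of 48 windows, the interval for CACGTG in windows with p300 alone reached 7.40%. CRE, AP-1 and CCAAT matches in windows with both were 1.41%, 3.52% and 42.3%, beside 2.23%, 6.99% and 38.2% of all windows. Windows of one gene can overlap, and a match is a description of letters only. In all, 48 windows of 45 genes held the highest region of a p300 peak, 41 of them with H3K4me3 and 7 without.

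Most neuron p300 was called away from H3K4me3. The 139 peaks at H3K4me3 made up 14.4% (12.2 to 16.8) of the p300 list and the 826 away made up 85.6% (83.2 to 87.8). Seen from the other mark, 136 of 5625 H3K4me3 peaks held p300, or 2.42% (2.03 to 2.85). When each list was cut to its stronger 50%, p300 at H3K4me3 was 8.90% by total signal and 3.93% by highest signal, and H3K4me3 with p300 was 1.46% and 0.675%. Since both lists were cut, fewer peaks of the other list remained to be met. The peak at Adgrg1 held 2 p300 peaks, the widest one, near Ppara, held 3, and the others held 1 each. The p300 list covered 4.49 Mb and the H3K4me3 list 26.6 Mb. Where the marks met, they met over most of the p300 interval: 71 p300 peaks (51.1%) lay wholly inside an H3K4me3 peak, 19 (13.7%) covered one, and 49 (35.3%) crossed an edge. The region of highest p300 signal lay inside the H3K4me3 peak in 131 of 139 (94.2%). The median share of a p300 peak that was covered was 100%, against a median of 67.6% for the H3K4me3 peaks.

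Few peaks sat near the border of the rule. The smallest overlaps were 1650 bp at the Hdgfl2 end (a 1700 bp p300 peak), 1700 bp at Cdca2 and 1900 bp at Zbtb18, a transcriptional repressor gene of developing neurons. The smallest gaps among the away peaks were 100 bp in Syt2, which encodes a synaptic vesicle calcium sensor, 150 bp in the Polycomb gene Phc2 and 200 bp in Wscd1. Only 6 of the 826 away peaks lay within 1 kb of H3K4me3. Over the away peaks, the median gap between nearest edges was 87850 bp (quartiles 32125 to 185525, n = 823). It was 137850 bp between the stronger 50% of both lists by total signal and 191950 bp by highest signal, where fewer H3K4me3 peaks remain to be near. Gaps were at most 5 kb for 36 peaks (4.36%), 10 kb for 75 (9.08%), 50 kb for 287 (34.7%), 100 kb for 451 (54.6%) and 500 kb for 785. The 3 remaining away peaks lay on unplaced sequences that carried no H3K4me3 peak. The 5 farthest were in or near Lpp (1830600 bp), Ppp4r2 (1366850 bp), Wwox (1249950 bp), Dync1i1 (1240900 bp) and Ntm (1225000 bp), with total-signal percentiles of 8.39 to 53.9. Neighbouring p300 peaks were themselves far apart, with a median gap of 501500 bp over 943 pairs. Of these pairs, 83 were within 10 kb, and 16 of the 83 joined a peak at H3K4me3 to one away from it.

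**Figure D1:**
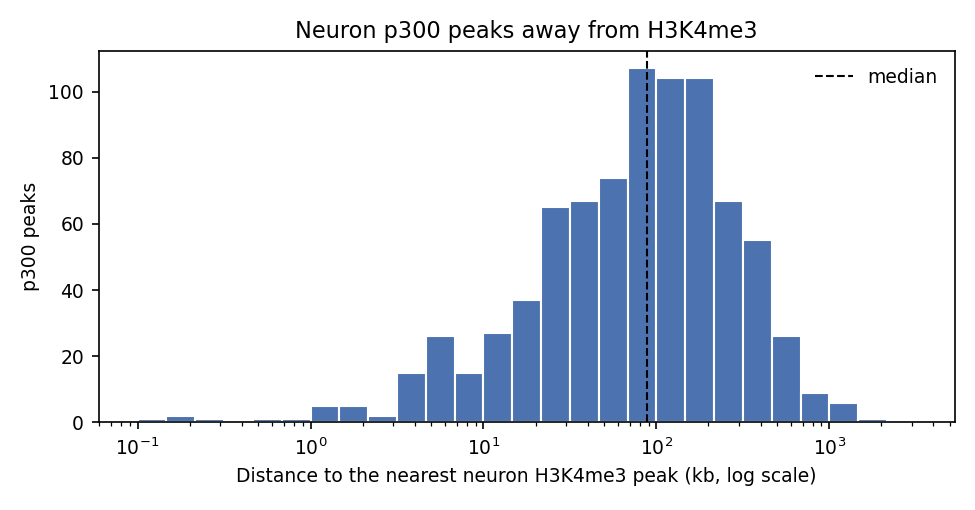
Distance from each neuron p300 peak away from H3K4me3 to the nearest neuron H3K4me3 peak (x axis, kb, log scale) against the number of p300 peaks (y axis). The dashed line is the median of 87850 bp over 823 peaks of the full lists (137850 bp for the stronger 50% by total signal), and 6 peaks lie within 1 kb.

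The classes differed in shape. p300 peaks at H3K4me3 were wider, with a median of 4900 bp (quartiles 3800 to 7575, range 1700 to 22250), and those away had a median of 3875 bp (2950 to 5400, range 1200 to 15550). Their ranks ran the other way. The percentile of a peak is the share of its list with a signal no higher. By total signal, the sum over a peak, the median percentile was 39.1 at H3K4me3 and 52.0 away. By highest signal it was 27.8 at H3K4me3 and 54.0 away. The quartiles of each pair overlapped. Across the list cut into 4 groups of equal size, the share at H3K4me3 was 19.5%, 15.8%, 12.9% and 9.50% from the weakest to the strongest total signal, and 27.4%, 15.7%, 10.04% and 4.53% from the lowest to the highest top signal. By width it was 7.88%, 8.75%, 17.1% and 23.8% from the narrowest to the widest group. A wider p300 interval is more likely to meet an H3K4me3 peak, and how much of the width difference follows from this was not tested. Wide p300 peaks tended to have low tops within each class: the rank correlation (Spearman) of width with highest-signal percentile was -0.33 over the 139 peaks at H3K4me3 and -0.21 over the 826 away, peaks of 1 library in each case. Width with total signal gave 0.47 and 0.40.

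The H3K4me3 peaks that held p300 were themselves broad. Their median width was 6975 bp (quartiles 5500 to 9100), beside 4300 bp (3400 to 5400) for the 5489 without p300. Their median total-signal percentile was 85.1, beside 49.3. By highest signal the medians were 47.9 and 50.2, with overlapping quartiles. The share with p300 was 0.216%, 0.690%, 1.46% and 7.27% from the narrowest to the widest of 4 groups of H3K4me3 peaks, and 3.55%, 1.49%, 2.21% and 2.42% from the lowest to the highest group by highest signal. A wide interval offers more bases for an overlap, and how far width alone sets these shares was not tested. Over the 136 sites, all from the same pair of libraries, the rank correlation of p300 and H3K4me3 total-signal percentiles was 0.044. At Cdc42se1 and Mllt11, H3K4me3 was at percentile 99.96 and p300 at 0.518. Near Klf9, a Krüppel-like factor gene, H3K4me3 was at 3.17 and p300 at 92.0.

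**Figure D2:**
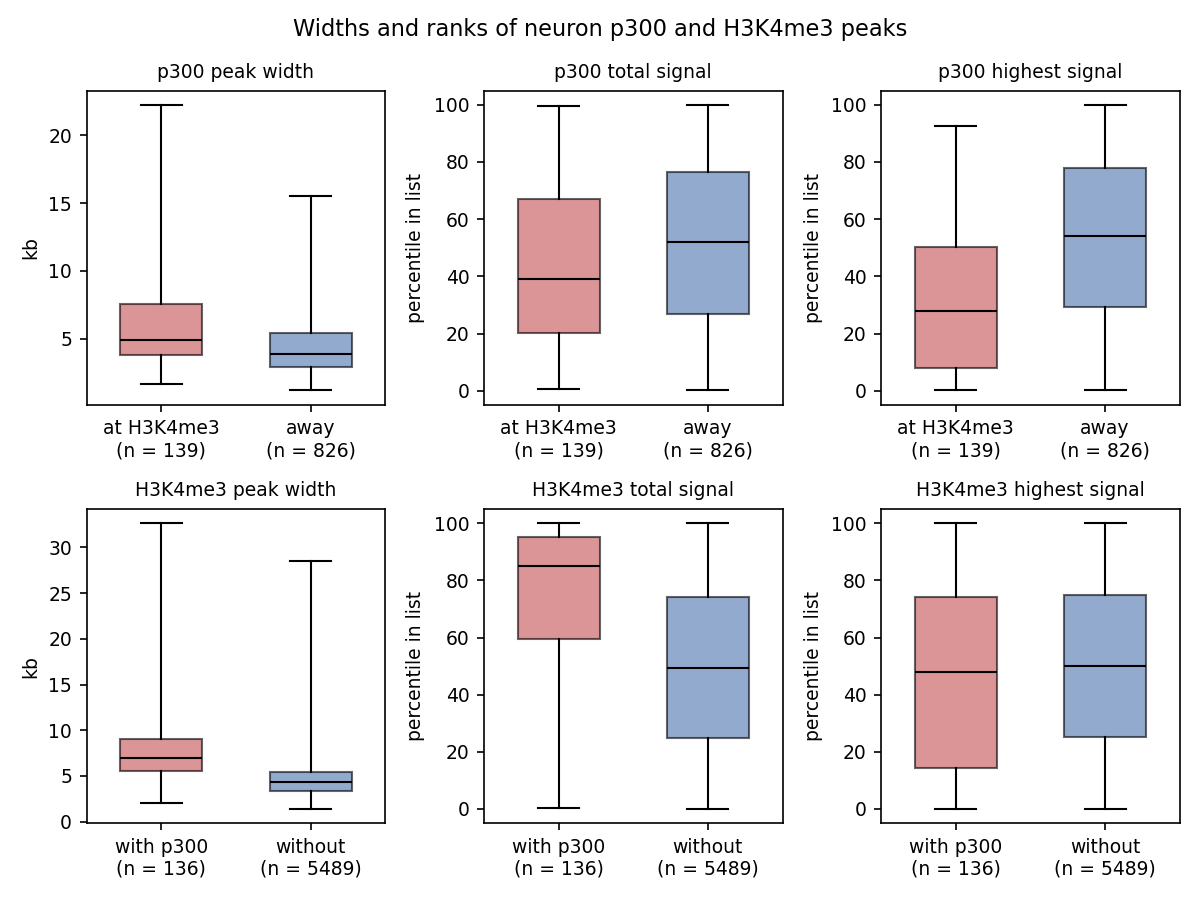
Widths (kb) and percentiles within the list by total and by highest signal, for p300 peaks at and away from H3K4me3 (upper row) and H3K4me3 peaks with and without p300 (lower row). Boxes are quartiles with the median, whiskers the lowest and highest peak; p300 at H3K4me3 is wider (median 4900 against 3875 bp) and lower by highest signal (27.8 against 54.0).

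Summits, the regions of highest signal, were often apart. The highest p300 and highest H3K4me3 regions of a site lay a median of 1225 bp apart (quartiles 250 to 3112.5, maximum 13300). They were identical at 13 of 136 sites, within 250 bp at 35 and more than 5 kb apart at 15. At 89 sites both summits could be set against a stranded start. Sites with a start for the H3K4me3 summit only, such as Sox2, Adgrg1 and Ddr1, are left out of these values. Each summit was measured from its own nearest start. At some sites these were starts of different genes, such as Tprn for p300 and Anapc2 for H3K4me3. The p300 summit lay a median of 340.5 bp from its start, downstream of it at 46 and upstream at 43. The H3K4me3 summit lay a median of 306.5 bp from its start, downstream at 61 and upstream at 28. The p300 summit was the closer one at 30 sites and the H3K4me3 summit at 53.

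Position at genes differed between the classes. A gene end here means either annotated end of a protein-coding gene, widened by 1 kb, since the gene table gives spans without strand. Of the peaks at H3K4me3, 107 of 139 (77.0%, 69.1 to 83.7) touched a gene end, 20 (14.4%) lay in a gene body and 12 (8.63%) outside coding genes. Of the peaks away, 100 of 826 (12.1%, 9.96 to 14.5) touched a gene end, 365 (44.2%) lay in a gene body and 361 (43.7%) outside. H3K4me3 itself mostly sits at gene ends: 4993 of the 5489 H3K4me3 peaks without p300 (91.0%) touched one. A high share among p300 peaks at H3K4me3 therefore follows in part from the rule that set the classes. With stranded starts alone, 90 of 136 (66.2%) and 40 of 800 (5%) lay within 1 kb of a start. An end of a non-coding gene, and of no coding gene, was touched by 5 peaks at H3K4me3 and by 122 away (14.8%). The nearest coding gene carried H3K4me3 at an end for 327 of the 826 away peaks (39.6%, 36.2 to 43.0). This compares with 128 of the 139 peaks at H3K4me3 (92.1%) and with 30% of all coding genes. In all, 127 away peaks (15.4%) lay over 50 kb from any coding gene. Among away peaks, those at gene ends were the widest (median 4875 bp), followed by gene bodies (4200 bp) and the space outside genes (3500 bp), while their total-signal percentiles were 52.1, 54.0 and 50.2. The X chromosome held 3 p300 peaks, none at H3K4me3.

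**Figure D3:**
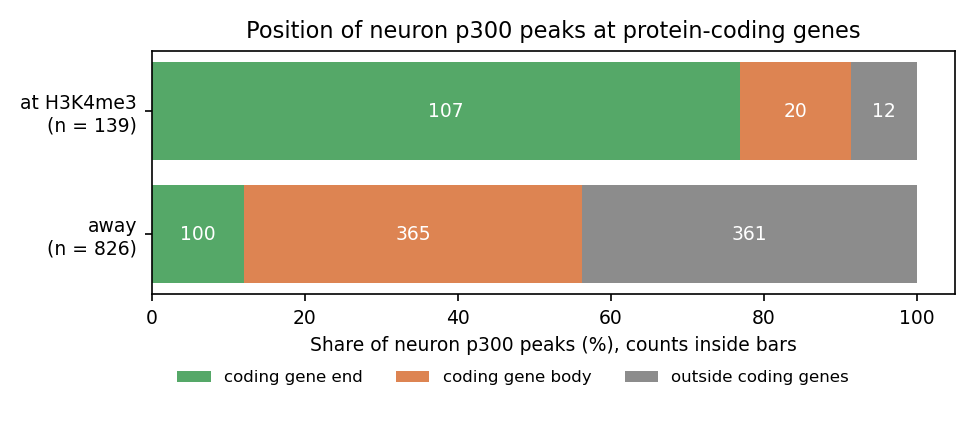
Share of neuron p300 peaks (x axis, %) that touched a protein-coding gene end, lay in a gene body or lay outside coding genes, for the 139 peaks at H3K4me3 and the 826 away, with counts inside the bars. Gene ends hold 107 of the former and 100 of the latter.

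Of the 10 strongest p300 peaks away from H3K4me3, 5 lay in a gene body, 2 at a gene end and 3 outside coding genes. The top peak by total signal spanned chr5:118072401-118087550 (mm10, 15150 bp) in the body of Fbxw8, which encodes a substrate receptor of a cullin ubiquitin ligase, 80050 bp from H3K4me3. A peak in Celf4, an RNA-binding protein gene of neurons, ranked at percentile 99.8 and was 484850 bp from H3K4me3. The peak at chr19:41687151-41695900 (8750 bp, 99.6) lay in Slit1, a secreted axon repellent, 132950 bp from H3K4me3. Others of the top 10 had BC034090, Ccdc167, Arhgap12, Btbd16, Ttc7 and Rybp as nearest genes, at gaps of 25650 to 677450 bp from H3K4me3. The peaks named for Btbd16, Rybp and Arhgap12 lay 7700, 20765 and 43248 bp outside the gene. The widest away peak, 15550 bp, lay outside coding genes with Ppara as the nearest, and Crocc (14600 bp), Gpr153 (13500 bp) and Fbxw8 were also among the 5 widest.

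Several genes were nearest to many of these peaks, with no limit set on the distance. The 823 away peaks on placed chromosomes had 634 distinct nearest genes, of which 509 were nearest to 1 peak and 38 to 3 or more. Gse1, a coiled-coil protein found with histone deacetylase complexes, was nearest to 13. They were 2900 to 12350 bp wide, ranked from percentile 20.5 to 98.2 and lay 11250 to 104900 bp from H3K4me3. A 14th p300 peak at Gse1 was at H3K4me3. Mn1, Rybp, Sdk2 and Slit1 were nearest to 5 each. Of these 4, Rybp encodes a Polycomb protein and Sdk2 a synaptic adhesion molecule, and none had H3K4me3 at an end. Sox4, a progenitor and neuronal transcription factor, and Zmiz1, a transcriptional coactivator, were nearest to 4 each, and both had H3K4me3 at an end. Only 1 of the 4 for Sox4 lay within 50 kb of that gene. Among genes with 3 were Chd7, a chromatin remodeller needed for inner ear development, the LIM homeobox gene Lhx1, and Gadd45g.

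**Figure D4:**
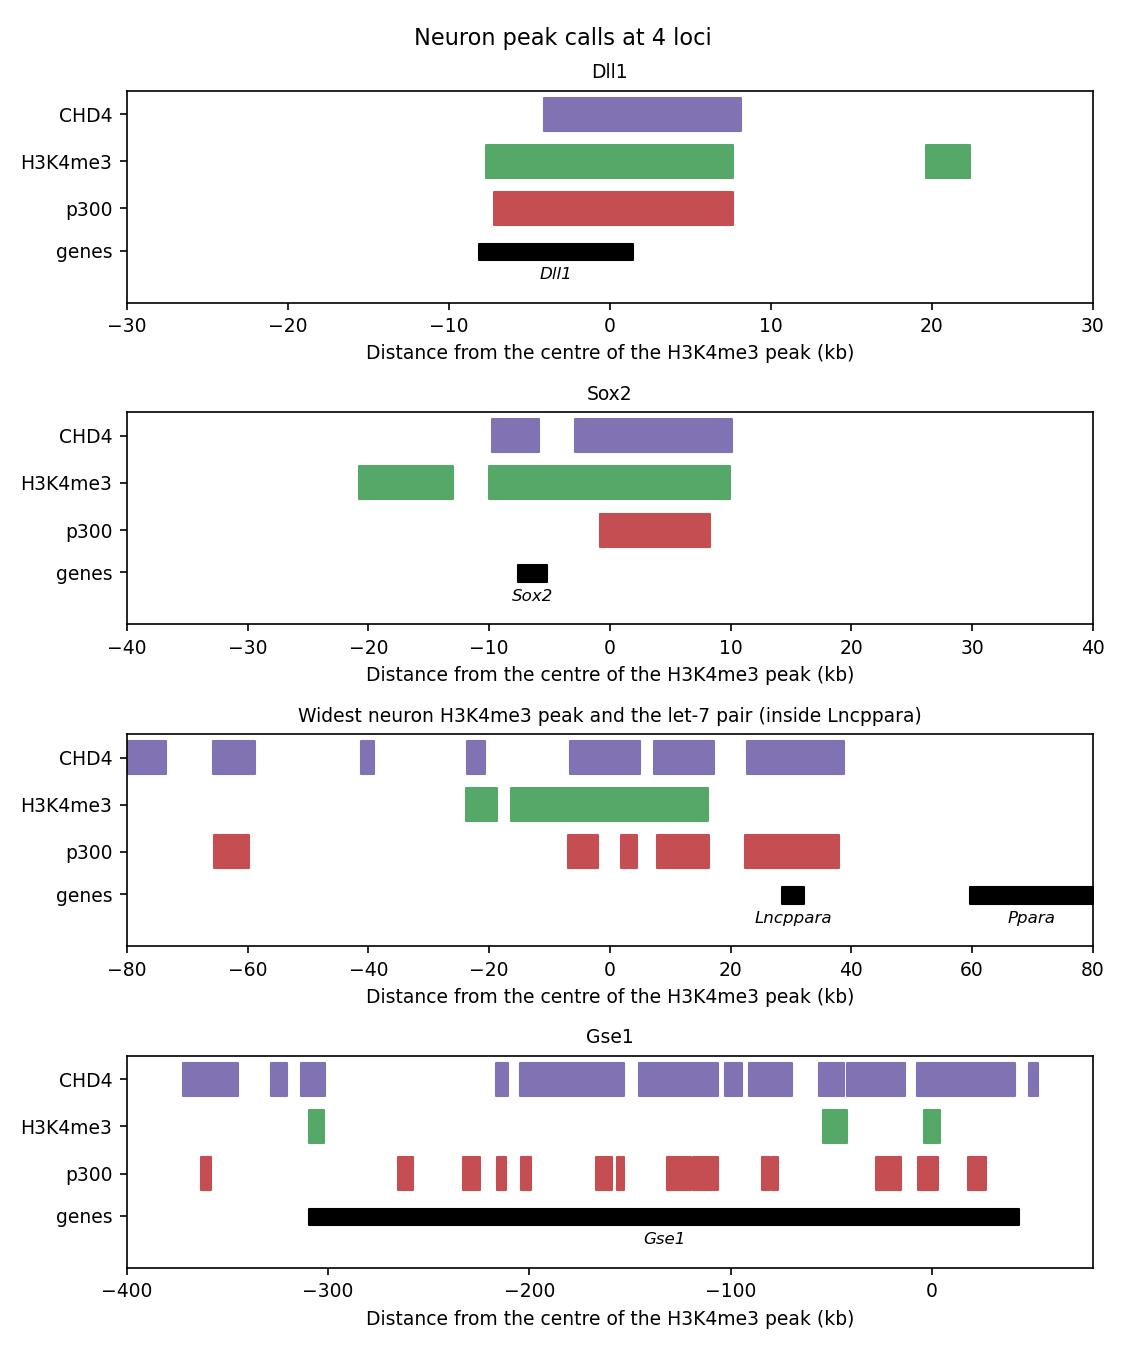
Neuron CHD4, H3K4me3 and p300 peaks (coloured bars) and genes (black bars) at 4 loci, by distance from the centre of an H3K4me3 peak (x axis, kb). p300 fills the H3K4me3 peak at Dll1, lies beside the Sox2 gene within a wider H3K4me3 peak, and at Gse1 recurs across the gene, mostly away from H3K4me3.

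Of the 10 strongest p300 peaks at H3K4me3, 7 touched a gene end. The first was at Inka2, 15550 bp wide and at percentile 99.7, with 7550 bp shared. The second, at Dll1, the gene of a Notch ligand, spanned chr17:15368251-15383100 (14850 bp, percentile 97.9) and lay wholly inside an H3K4me3 peak of 15350 bp. Spsb4 (10850 bp, 97.3) and the forkhead gene Foxo6 (15850 bp, 97.2) followed. Peaks nearest to Gse1, the potassium channel gene Kcnj12, Rbm38, Klf9 and Zfhx2 were also in the top 10, at percentiles of 90.4 to 94.6. The widest p300 peak of the list, 22250 bp at the planar polarity cadherin gene Celsr2, ranked at 88.8 by total and 14.2 by highest signal and had 9400 bp at H3K4me3.

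Among the H3K4me3 peaks with p300, the widest and strongest of the neuron list spanned chr15:85659001-85691650 (32650 bp), with no coding gene end and Ppara as the nearest gene at 43260 bp. Next by total signal were those at Cdc42se1 and Mllt11, the desaturase gene Scd2, Anapc2 with Ssna1 and Tprn, and Ankrd13b with Git1, 8750 to 14200 bp wide. The H3K4me3 peak over Sox2, a transcription factor of neural and otic progenitors, was 19950 bp wide (chr3:34647651-34667600). Its p300 peak, chr3:34656851-34665950, began 4389 bp past the gene and ranked at percentile 43.2 by total and 1.61 by highest signal. Adgrg1 (18600 bp) and Ccdc85c (18300 bp) were also among the 5 widest. An end of a coding gene was touched by 117 of the 136 peaks with p300 (86.0%, 79.0 to 91.4) and by 4993 of the 5489 without (91.0%, 90.2 to 91.7).

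p300 also covered some microRNA genes. Of 1005 RefSeq hairpins, 13 (1.29%) lay in a p300 peak, 9 of them away from H3K4me3 and 4 in both, while 96 (9.55%) lay in H3K4me3. The let-7 pair Mirlet7c-2 and Mirlet7b lay in the widest away peak, chr15:85697751-85713300 (percentile 91.5), 6100 bp beyond the widest H3K4me3 peak of the list. Mir26a-1 lay in a peak at percentile 66.1. Measured from the hairpin itself, H3K4me3 was 102745 bp off for Mir26a-1, 14952 bp for Mirlet7c-2 and 15668 bp for Mirlet7b. Both families are linked to differentiation, and their mature sequences are shown with the seed (bases 2 to 8) in capitals. The let-7 members share 1 seed, and miR-26a has its own. A peak over a hairpin does not show that the miRNA is made.
mmu-let-7c-5p: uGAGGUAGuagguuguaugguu
mmu-let-7b-5p: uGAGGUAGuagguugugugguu
mmu-miR-26a-5p: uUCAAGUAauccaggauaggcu

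Counted by gene, 271 protein-coding genes had p300 at an end (1.24% of 21887) and 6561 had H3K4me3 at an end (30%). Both marks met at the same end of 153 genes (0.699%). In lists cut to the stronger 50% (total signal), 108 genes had p300 at an end and 37 had both marks at the same end. p300 was at an end of 97 genes with H3K4me3 at neither end, and 21 had the marks at opposite ends. p300 away from H3K4me3 lay in or within 50 kb of 1176 genes (5.37%), or 6.57% of genes with H3K4me3 at an end and 4.86% of those without. Of the 153 genes, 20 were histone genes, under 7 p300 peaks; these near-identical clustered copies are uncertain.

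The Notch pathway, in which ligands on one cell activate receptors on its neighbour, had p300 both at promoters and away from them. Here a gene list is read by p300 or H3K4me3 at a gene end, and by p300 away from H3K4me3 in the gene or within 50 kb (away p300), beside the shares over all genes just given. An away peak counted for a member can lie in, or at an end of, another gene. Of 22 members, 13 had H3K4me3 at an end, 3 (13.6%) had both marks at the same end and 6 (27.3%) had away p300. Among ligands, Dll1 is described above, and Dll4 had a peak at percentile 26.5, 22734 bp from the gene and at an end of Vps18. Among receptors, Notch1 had a 6700 bp p300 peak at H3K4me3 (percentile 70.5) and a second of 6200 bp in its body (84.9), 8050 bp from H3K4me3. Notch2 had an away peak in its body (86.0), 4600 bp from H3K4me3. Lfng and Mfng, glycosyltransferases that modify the receptors, had away peaks at percentiles 63.3 and 75.8. Rbpj had one at 10.6. Hes6 had a 4850 bp peak at H3K4me3 (77.5). Hes1, a main Notch target, had neither mark at an end in neurons, and its nearest p300 peak was 102104 bp off.

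In the transcription factor lists other than the Id list, as over all genes, more members had away p300 than both marks at one end. Of 25 SOX, NFI, MEIS and POU3F genes, 18 had H3K4me3 at an end, Sox12 alone had both marks at the same end, and Nfia, Nfix, Sox4, Sox8, Sox9 and Sox11 had away p300. The peak in Nfia ranked at 73.7. The one counted for Nfix (82.5) lay 12513 bp from that gene, at an end of another coding gene. That at Sox4 ranked at 2.07 and lay 1800 bp from H3K4me3. Of 25 neuronal transcription factors, 4 had H3K4me3. Insm1, a zinc finger gene of newly formed neurons, had both marks (p300 percentile 29.6). Insm1 and Scrt1 were counted with away p300. The Insm1 away peak lay 36731 bp off, in the body of another gene. The Scrt1 peak (84.6) lay 48503 bp off, at an end of another gene. Of 24 otic progenitor regulators, 5 had H3K4me3, none had p300 at an end, and Gata2 and Sox9 had away peaks. Of 23 AP-1 and immediate early genes, 13 had H3K4me3, Jun had both (39.7), and Btg2, Fos, Ier5 and Nr4a1 had away peaks, that of Nr4a1 at 96.1. None of the 10 Id and bHLH partner genes had p300 at an end or away p300, and 8 had H3K4me3.

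In the guidance lists, Ntn3 was the only member with both marks at the same end. Of 31 semaphorins, plexins and neuropilins, 13 had H3K4me3, none had p300 at an end and 6 had away p300 (Nrp2, Plxna2, Plxnd1, Sema4b, Sema4c and Sema7a). The Plxnd1 peak, in the body of this semaphorin receptor gene, was 11500 bp wide at percentile 96.2 and lay 11450 bp from H3K4me3. Of 24 Slit, Robo and netrin genes, Ntn3 had both marks (14.1), Slit1 had p300 at an end with no H3K4me3 (51.3), and Draxin, Ntng1, Slit1 and Slit3 had away peaks. The Draxin peak (79.8) lay 1300 bp from H3K4me3. Of 22 Eph receptors and ephrins, 13 had H3K4me3, and Ephb1 and Ephb2 had away p300. Epha4 had H3K4me3, with p300 at a distance of 624993 bp.

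Of 28 cytoskeleton and axon genes, Tubb3, the neuronal beta-tubulin, had both marks, with a 7550 bp p300 peak at percentile 70.9, and Cntn2, an axonal adhesion molecule, had away p300 (60.5). Of 30 synapse and ion channel genes, 5 had H3K4me3 and none had p300 at an end. Of 30 cell cycle progression genes, 24 had H3K4me3, none had p300 at an end and 5 had away p300 (Ccne1, Cdc6, E2f1, Mcm2 and Top2a), where 1 peak served both Cdc6 and Top2a. Of 17 cell cycle exit genes, Btg2 and Gadd45b had away p300. Among 20 FGF and MAPK feedback genes only Dusp5, a phosphatase acting on ERK, did (53.4).

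Among chromatin genes, the acetyltransferase Kat6b and the bromodomain reader Brd2 had both marks (p300 percentiles 18.0 and 60.6), and Brd7 had away p300 (71.3), out of 17. Of 15 NuRD subunits, Mbd3 had both (15.3) and Chd3 and Chd5 had away p300. The Chd5 peak lay 46796 bp from the gene, at ends of Gpr153 and Hes3. Ep300, which encodes p300, and Chd4 had H3K4me3 at an end and no p300 there; the nearest p300 peaks were 1273273 and 28059 bp off. Of 18 enzymes that write or erase H3K4 methylation, 14 had H3K4me3, and Kdm1a and Kdm5a had away p300. Ribosomal protein genes had H3K4me3 in 24 of 25, and Rpl13 was among those with away p300.

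**Figure D5:**
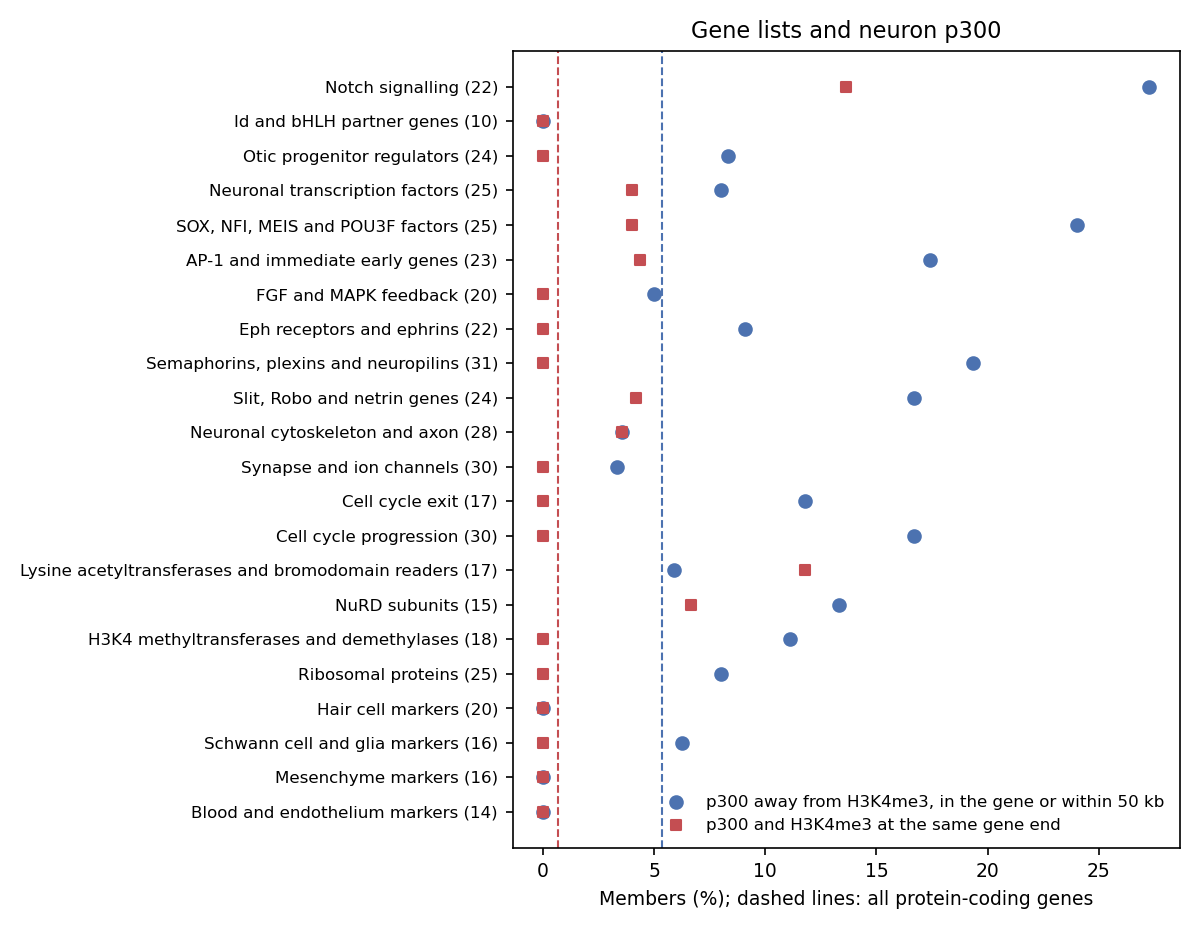
Share of each of 22 gene lists (size in brackets) with p300 and H3K4me3 at the same gene end (squares) and with p300 away from H3K4me3 in the gene or within 50 kb (circles), in %. Dashed lines give the shares over all protein-coding genes, 0.699% and 5.37%, and most circles lie to the right of the squares of their list.

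Peaks cannot show which cells were present, and marker lists of other cell types are given only as counts. No p300 at an end and no away p300 was found for 20 hair cell, 16 mesenchyme and 14 blood and endothelium genes, and away p300 was found for 1 of 16 Schwann cell and glia genes, Pmp22. With lists this short, such counts are near the shares over all genes (1.24% and 5.37%). H3K4me3 was at an end of 2 hair cell (10%), 4 mesenchyme (25%), 0 blood and endothelium and 2 glia genes (12.5%), beside 30% of all genes, 16% of the neuronal transcription factors and 16.7% of the synapse and ion channel genes. Of the neuronal markers, Tubb3, Map2 and Elavl3 had H3K4me3 at an end, and Dcx, Elavl4, Stmn2, Nefl and Nefm did not. Elavl4 did have an H3K4me3 peak within the gene span, away from its outer ends. Of the progenitor markers, Sox2 had it, and Pax2 and Eya1 did not.

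Nearly every neuron p300 peak also lay in a neuron CHD4 peak: 139 of 139 at H3K4me3 and 823 of 826 away. The 3 exceptions were at Gmppa and, for 2 peaks, Gse1. Among H3K4me3 peaks, CHD4 lay at 136 of 136 with p300 and at 1102 of 5489 without (20.1%, 19.0 to 21.2). How much of this an IgG library would give was not tested.

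The p300 list of proliferating iMOPs, which is longer (3144 peaks), overlapped 118 of 139 neuron p300 peaks at H3K4me3 (84.9%, 77.8 to 90.4) and 612 of 826 away (74.1%, 71.0 to 77.1). With that list trimmed to the 965 strongest peaks, the shares were 66.9% and 45.2%. Away peaks shared with proliferating cells had a median total-signal percentile of 57.8, and the 214 that were not shared 33.0. H3K4me3 of proliferating cells overlapped 132 of 139 of the first class and 50 of 826 (6.05%, 4.53 to 7.90) of the second. Among the strongest of these 50 were those overlapping Fbxw8 and Btbd17 (92.4) and that 27880 bp from the Wnt ligand gene Wnt7b (95.4). Their median distance to neuron H3K4me3, for the 49 on placed chromosomes, was 32350 bp. The 7 p300 peaks at neuron but not proliferating H3K4me3 were nearest to Trim62, Gm40363, Cbfa2t3, Cxxc5, Tspan18, Zfp236 and Spns2, and 5 of these were not in the proliferating p300 list. The p300 peaks at Trim62 and Cxxc5 missed proliferating H3K4me3 by only 100 and 600 bp. The neuron H3K4me3 peaks they met did overlap proliferating H3K4me3, so these sites were not marked in neurons alone. At the other sites the neuron H3K4me3 peak had no such overlap, and the p300 peak lay 6900 to 206400 bp from proliferating H3K4me3.

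The share of p300 at H3K4me3 was lower in the neuron lists than in the proliferating ones. It was 14.4% (12.2 to 16.8) in neurons and 44.8% (43.0 to 46.5, 1407 of 3144) in proliferating cells, and 38.3% when the proliferating lists were trimmed to the length of the neuron lists. Of proliferating H3K4me3 peaks, 18.4% held p300. Proliferating p300 at proliferating H3K4me3 was found again in the neuron p300 list for 169 of 1407 (12.0%, 10.4 to 13.8), and that away from it for 570 of 1737 (32.8%, 30.6 to 35.1). In proliferating cells both classes had a median width of 3350 bp, and in the trimmed lists 5350 bp at and 4500 bp away. With 1 library per state, library depth, calling and state cannot be told apart.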

How the data were processed

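CUT&Tag peak lists of CHD4, H3K4me3 and p300 from proliferating iMOPs and iMOP-derived neurons were used, 6 lists with 1 for each antibody in each state. Per the submitters' processing notes, the tools were SEACR, Bowtie2 and deepTools and the build was mm10. Versions, parameters, the handling of IgG and duplicates, and any merging of libraries into a list are not given in the sources used here. Each list has the 6 columns of SEACR output, and its total and highest signal are the values the authors deposited. How they were scaled is not given, and signal served only to rank peaks within a list. Positions run in steps of 50 bp, apart from a few values, and are printed counted from 1.

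Overlaps, gaps, percentiles and exact 95% intervals were computed with SciPy 1.17.1, pandas 2.3.3 and numpy 2.4.6 under Python 3.11.15, and the overlap routine was tested on simulated intervals. No tests were run, since peaks and genes of 1 library are not replicates; whether a list comes from separate cultures is not stated. Gene spans came from a RefSeq table (GRCm38.p6) of which 21887 protein-coding genes lie on the autosomes, X or Y; promoter windows with strand covered 17492 of them. The members and the 22 gene lists (463 distinct genes, all found) were chosen with earlier results of these data known. Named genes were the nearest genes of the strongest, widest, nearest, farthest and least overlapping peaks of each class, the list members with p300 and 7 genes always given; genes with many p300 peaks, the promoters and miRNAs shown, Klf9 as an example of unlike ranks, and the 7 peaks at neuron but not proliferating H3K4me3 were chosen after their values were seen. Some named genes are not reported here. Sequence in peaks outside promoter windows was not analysed here. Alternatives were 50% coverage, a gap of up to 1 kb, the stronger 50% of each list by total or highest signal, the region of highest signal, other gene windows, and trimmed proliferating lists. Use of the proliferating H3K4me3 list, removal of histone genes and unplaced sequences, and widths in trimmed proliferating lists were added after seeing the data.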

Additional observations from a re-analysis of the deposited data

How the results depend on the processing

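Of 74 recomputed values, 47 stayed within the interval of the reported value (or within 1.5 times for counts of genes) and 27 moved. A reversal was looked for only in the state difference, which kept its sign under each alternative. The order of the classes in width, total-signal rank, gene ends and overlap with proliferating p300 held under each alternative run, except that H3K4me3 peaks with p300 ranked below those without by highest signal (47.9 against 50.2). By highest signal, p300 at H3K4me3 had a median percentile of 27.8. With lists cut to their stronger 50% (total signal), 8.90% of p300 was at H3K4me3 and 1.46% of H3K4me3 had p300, and by highest signal 3.93% and 0.675%. The same stronger lists by total signal gave median p300 widths of 6950 bp at and 4650 bp away, H3K4me3 widths of 9100 bp with and 5000 bp without p300, and 67.4% of p300 at H3K4me3 touching a gene end. They also gave 70.7% of away p300 in the proliferating p300 list, 3.86% of it at proliferating H3K4me3, 108 genes with p300 at an end and 37 with both marks. The median distance was then 137850 bp, and 191950 bp for the stronger 50% by highest signal. With 50% coverage, 1.80% of H3K4me3 had p300 and 70.3% of away p300 was in the proliferating list. A window of 2.5 kb put 15.1% of away p300 at a gene end, and starts alone gave 66.2% at and 5% away. Trimmed proliferating p300 held 66.9% of p300 at H3K4me3 and 45.2% of that away. The state difference of 30.3 percentage points became 23.9 with trimmed lists and 27.0 with the stronger 50%. Against the proliferating H3K4me3 list, an alternative chosen after seeing the data, 18.9% of neuron p300 was at H3K4me3. Leaving out the 10 p300 peaks at histone genes or on unplaced sequences, also added later, moved neither median width beyond its interval. With no replicates, no library could be left out, and the depth behind a missing peak is unknown. No paired analysis was possible because each antibody and state has 1 library and no result comes from a test.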
